A study of Mus musculus with 18 samples.

Results

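The genes described here are 42 genes of DNA replication and S phase, taken by symbol from a table of 23453 gene symbols. They cover origin licensing and the Mcm2-7 helicase (8 genes), helicase activation (6), the polymerases and primase (6), the sliding clamp and its loader (6), single-strand DNA binding (2), lagging strand maturation (2), deoxynucleotide supply (4), entry into S phase (3), chromatin behind the fork (3) and fork protection with recombination (2). All 42 were in the table and all 42 passed the filter on low counts in every comparison.

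RNA was sequenced from B16F10, a mouse melanoma line that grows as tumours in C57BL/6 mice. The cells carried a lentiviral pLKO.1 construct with an shRNA against Hgs (shHrs), which encodes the endosomal sorting protein Hrs, or with a scrambled shRNA (shCTL), and were kept under puromycin or blasticidin. Cultured cells formed batch 1 and batch 2, each with 2 shCTL and 2 shHrs libraries, and tumours formed 5 shCTL and 5 shHrs libraries from immunocompetent C57BL/6 females of 6 to 8 weeks. The shRNA lowers Hgs in a selected pool and does not delete it, and the tumours also hold cells of the host. The labels do not say whether the cultures of a batch were grown separately, so p-values measure only the spread between these libraries.

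Before S phase, the origin recognition complex, Cdc6 and Cdt1 load the ring of Mcm2 to Mcm7 onto DNA at origins. Cdc45, the GINS complex and Mcm10 then turn that ring into a moving helicase, and polymerase alpha with primase, polymerase delta and polymerase epsilon copy the strands behind it. E2F transcription factors, held back by the RB family until cyclins D and E activate their kinases, drive many of these genes at the G1 to S boundary, and the transcripts are a common measure of how many cells of a population are cycling.

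Promoter sequences are shown as a description, and the part of their words in the levels of these genes was not tested. RefSeq (GRCm38.p6) gave a window of 250 bases before and 50 bases after the annotated start for 34 of the 42 genes. The E2F-type words searched, on both strands with overlaps allowed, were TTTCCCGC, TTTGGCGC, TTTCGCGC and TTTGCCGC. They occurred in 13 of the 34 genes (38.2%), in 1 of 17 genes of mitosis and the spindle (5.88%) and in 532 of 16404 genes of the whole table (3.24%). The 13 were Mcm3, Mcm5, Mcm6, Mcm7, Cdc6, Cdt1, Gins3, Pola1, Pold1, Rfc3, Lig1, Uhrf1 and Brca2. The CHR words TTTGAA and TTCGAA, an element of late cell cycle promoters, occurred in 6 of the 34 (17.6%), in 13 of the 17 mitosis genes (76.5%) and in 19.4% of the table. The word CCAAT occurred in 58.8%, 82.4% and 42.2% of these sets. The 250 bases before the RefSeq start of 5 genes are given 5′ to 3′ on the strand of the gene. E2F-type words on either strand are in capitals. Starts in GENCODE M21, another annotation, can differ and were not searched. All printed bases of Cdc6 lie within its GENCODE span (chr11:98907801-98923940), as do part of those of Pcna (chr2:132249162-132253314), so they are not all upstream of the gene there.
Mcm6, minus strand, chr1:128359706-128359955: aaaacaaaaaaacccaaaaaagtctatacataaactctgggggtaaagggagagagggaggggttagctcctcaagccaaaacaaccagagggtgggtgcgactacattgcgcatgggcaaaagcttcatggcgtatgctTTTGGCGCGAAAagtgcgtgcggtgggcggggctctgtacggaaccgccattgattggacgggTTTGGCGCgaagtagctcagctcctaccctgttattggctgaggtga
Mcm5, plus strand, chr8:75109259-75109508: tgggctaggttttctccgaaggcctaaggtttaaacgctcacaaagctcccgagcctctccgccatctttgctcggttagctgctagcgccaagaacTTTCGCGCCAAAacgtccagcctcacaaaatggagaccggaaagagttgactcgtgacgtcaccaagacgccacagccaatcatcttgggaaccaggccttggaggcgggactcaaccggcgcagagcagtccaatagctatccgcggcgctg
Cdc6, plus strand, chr11:98907901-98908150: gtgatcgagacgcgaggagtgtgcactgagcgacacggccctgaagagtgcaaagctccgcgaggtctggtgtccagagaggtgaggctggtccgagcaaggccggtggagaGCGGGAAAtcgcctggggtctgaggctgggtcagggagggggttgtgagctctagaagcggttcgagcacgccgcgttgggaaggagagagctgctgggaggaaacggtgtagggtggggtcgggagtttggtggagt
Brca2, plus strand, chr5:150522371-150522620: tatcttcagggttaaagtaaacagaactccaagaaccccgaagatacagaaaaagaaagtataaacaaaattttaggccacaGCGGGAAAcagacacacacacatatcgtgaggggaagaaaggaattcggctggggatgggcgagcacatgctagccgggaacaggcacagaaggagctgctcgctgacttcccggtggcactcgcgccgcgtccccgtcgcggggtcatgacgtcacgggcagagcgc
Pcna, minus strand, chr2:132253181-132253430: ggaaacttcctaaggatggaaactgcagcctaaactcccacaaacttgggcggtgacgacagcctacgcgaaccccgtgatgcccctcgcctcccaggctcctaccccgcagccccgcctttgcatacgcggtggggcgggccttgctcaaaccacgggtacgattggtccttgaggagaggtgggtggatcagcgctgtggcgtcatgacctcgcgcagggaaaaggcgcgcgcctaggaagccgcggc
Mcm6 and Mcm5 show words that overlap each other, on opposite strands, and Mcm6 has one more word nearer its start. Cdc6 and Brca2 each have a single word. Pcna is shown as a replication gene with none of these words in the window, which says only that these letters were not there.

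**Figure D1:**
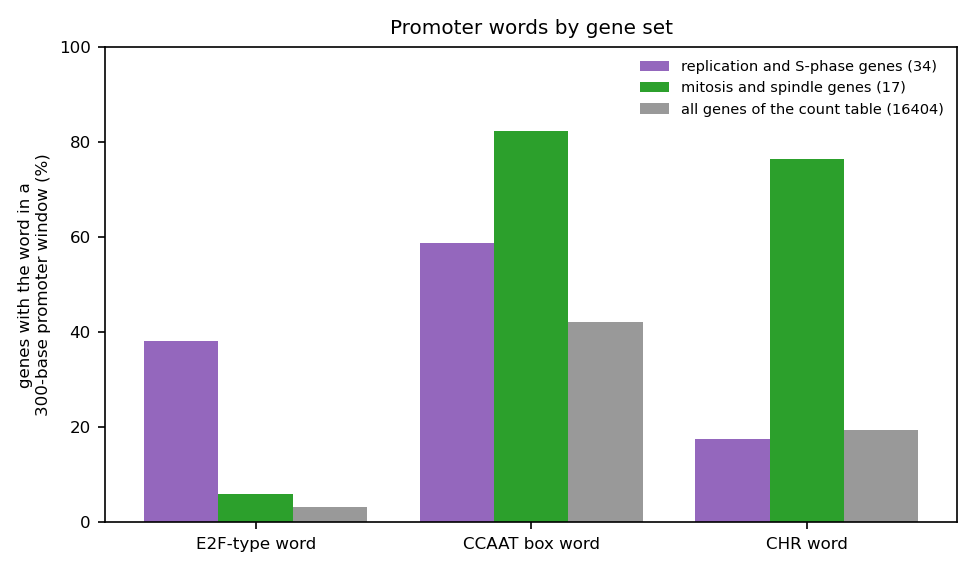
Share of genes (vertical axis, %) with an E2F-type, CCAAT or CHR word in a promoter window of 300 bases, for 34 replication and S-phase genes, 17 mitosis genes and 16404 genes of the table. E2F-type words stood in 38.2% of the replication genes and CHR words in 76.5% of the mitosis genes.

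The label of the knockdown was checked on Hgs. Hgs stood at 95.01 and 113 CPM (counts per M, for mega, of a library's TMM-scaled total) in shCTL and 35.2 and 30.4 CPM in shHrs cultures of batch 1, and at 97.8 and 107 against 44.5 and 41.3 CPM in batch 2. Tumours had 107, 97.6, 112, 109 and 95.8 CPM with shCTL and 23.8, 17.1, 21.3, 29.1 and 16.1 CPM with shHrs. Every shHrs library was below every shCTL library of its setting. Depth ran from 17612820 to 27705076 counts per library, and the 42 genes took 0.2% to 0.715% of them. Melanoma markers were all present at 1 CPM or more in all 18 libraries (7 of 7).

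The shHrs pair of batch 1 stood apart before any comparison. The mean level of the 42 genes, as log2(CPM + 2), was 6.77 in replicate 1 and 5.63 in replicate 2 of the shHrs cultures of batch 1, and all 42 genes were higher in replicate 1, by a median of 2.17-fold. The shCTL cultures also differed, with 41 of 42 genes higher in replicate 2 of batch 1 and 41 of 42 higher in replicate 1 of batch 2, by a median of 1.56-fold in both. Against both controls of their batch, 33 genes were below and 0 above in shHrs replicate 2 of batch 1, while 2 were below and 21 above in replicate 1. In batch 2, 34 and 36 genes were below both controls in the 2 shHrs libraries. The share of all genes was not counted for single libraries. Both shHrs libraries together lay below both controls for 16.8% of all genes in batch 1 and 34.7% in batch 2. Because the shHrs pair of batch 1 differed, culture results are given with and without single libraries of batch 1.

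Other gene groups differed between the same libraries. Type I interferon genes (12) had a mean log2 level of 5.04 in shHrs replicate 2 of batch 1 and 3.33 in replicate 1, against 3.49 and 2.83 in the controls of that batch. In batch 2 they stood at 5.05 and 5.28 in shHrs and at 2.75 and 2.84 in shCTL. Integrated stress response genes (12) were at 8.54 in shHrs replicate 2 of batch 1, above 5.78 to 6.72 in the other 3 libraries of the batch, but at 5.98 and 6.19 in shHrs and 7.37 and 7.74 in shCTL of batch 2. The part of either in the level of the replication genes was not tested.

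**Figure D2:**
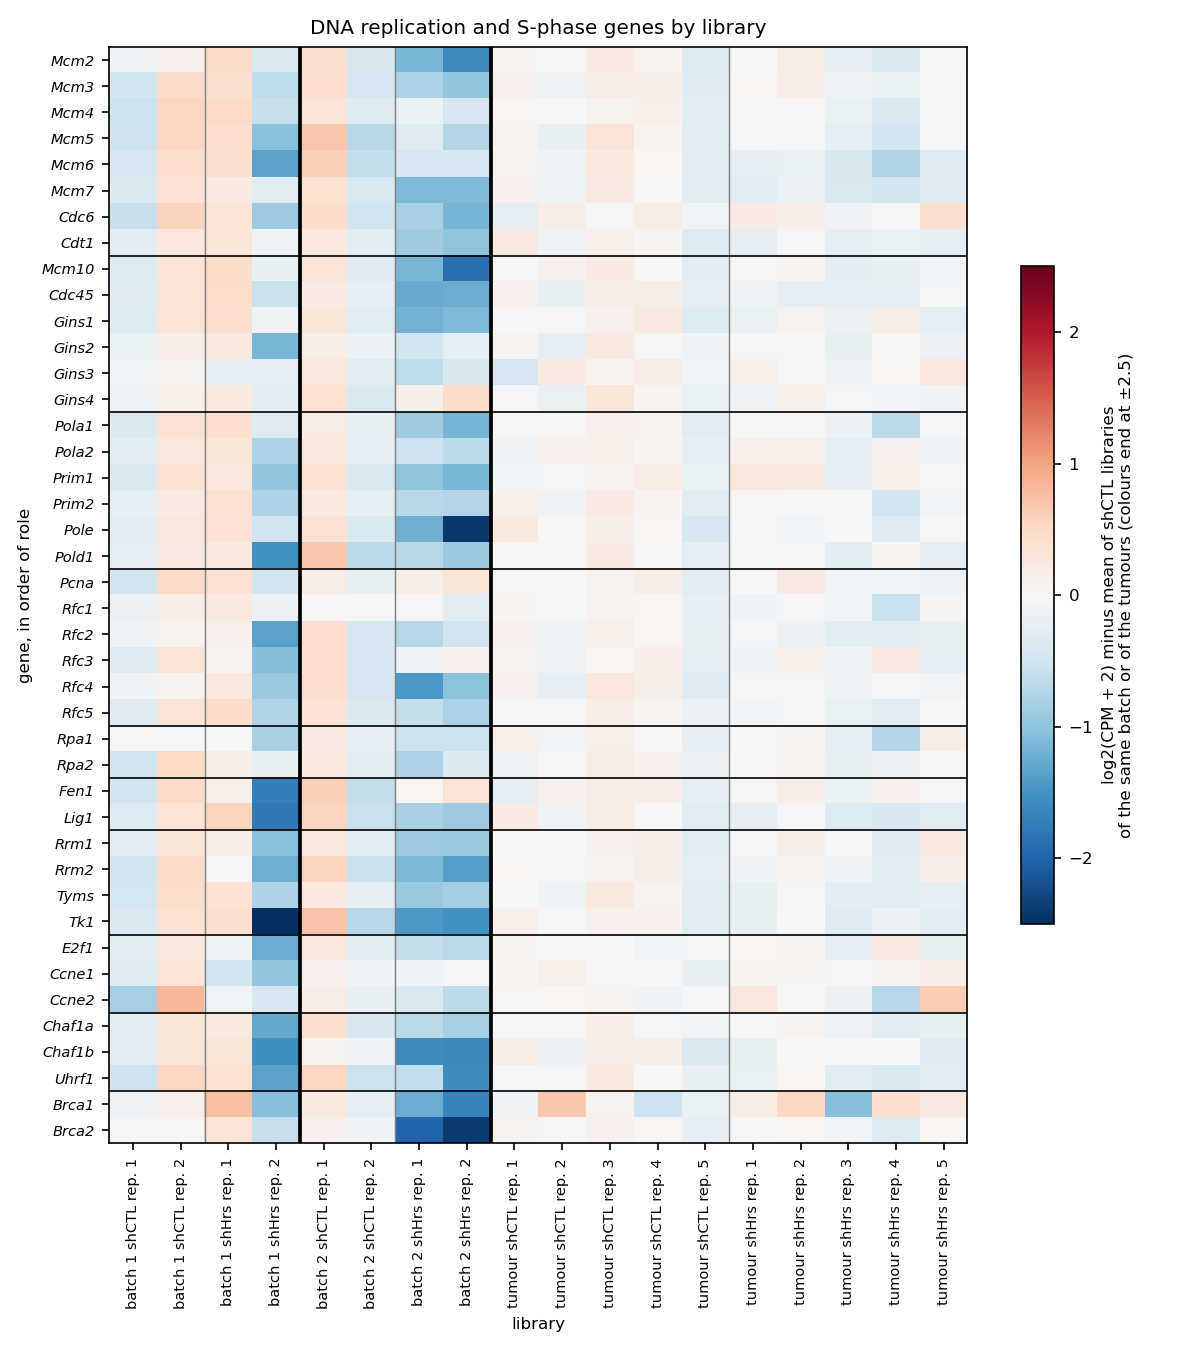
Level of each of the 42 genes (rows, in order of role, with lines between roles) in each of the 18 libraries (columns), as log2(CPM + 2) minus the mean of the shCTL libraries of the same batch or of the tumours, with colours ending at 2.5 in either direction. Blue marks lower levels, seen for 33 genes below both controls in shHrs replicate 2 of batch 1 and for 34 and 36 genes in the shHrs libraries of batch 2, while tumour columns are pale. The share of all genes was not counted for single libraries.

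With knockdown in batch 2, 1 gene of the 42, Brca2, passed the test, and it fell 5.91-fold. Fold changes were fitted to counts with edgeR's quasi-likelihood test, and p-values were adjusted by Benjamini-Hochberg over all genes tested with a threshold of 0.05. A share of 1 in 42 (2.38%) is near the 2.43% of all genes that were called lower. Of all genes 1.6% were called higher, where 0 of the 42 were, and 4.03% in either direction. The median log2 fold change of the 42 was -1.003, against -0.05 over all genes, and 39 of 42 values were negative against 52.7%. In 33 genes both shHrs libraries lay below both shCTL libraries, which held for 34.7% of all genes. The other 9 overlapped, where 69.7% of all genes had groups that did not overlap in one direction or the other. An unadjusted p under 0.05 was found for 16 of the 42, against 27.9% of all genes. Medians by role were -1.03 for licensing, -1.04 for helicase activation, -1.09 for polymerases and primase, -0.45 for clamp and loader, -1.23 for deoxynucleotide supply, -0.73 for entry into S phase and -1.17 for chromatin behind the fork. Roles of 2 genes each had -0.64 for single-strand DNA binding, -0.51 for lagging strand maturation and -2.08 for fork protection and recombination.

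The count of calls in batch 2 differed between tools, filters and the libraries fitted, and the cause was not tested. Fitted on the 4 libraries of the batch alone, edgeR called 27 of the 42 genes lower, against 18% of all genes. DESeq2 called 13 lower against 7.91%, edgeR without the filter on low counts 20 against 7.09%, and limma voom 1 against 2.86%. Without shHrs replicate 1 of batch 1, whose spread enters the fit, 16 were called against 10.9%, and without replicate 2 of that pair 18 against 11.8%. Leaving out any 1 library of batch 2 left 0 of the 42 called.

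In batch 1, edgeR called 0 of the 42 genes, as it did 0% of all genes, and so did DESeq2 and limma voom for the 42. An unadjusted p under 0.05 was found for 1 of the 42, Ccne1, against 9.38% of all genes. The median log2 fold change was -0.23 (all genes 0.01), 35 of 42 values were negative, and Gins3 and Ccne1 were the 2 genes whose shHrs libraries both lay below shCTL, where 16.8% of all genes did. The median was -0.92 without shHrs replicate 1, with 6 genes called lower (Tk1, Gins2, Rfc2, Lig1, E2f1 and Chaf1b) against 6.67% of all genes. It turned to 0.30 without shHrs replicate 2 and to 0.20 without shCTL replicate 2. Genes named in this way, for a small count, were chosen after their values were seen.

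The difference between the batch effects was tested directly as an interaction, and 0 of the 42 passed with edgeR, where 0.0233% of all genes were called lower. An unadjusted p under 0.05 was found for 8 of the 42, against 20.3% of all genes, which is near the background. DESeq2 called 1 (Brca2) against 3.72% of all genes, edgeR without the filter 5 against 3.91%, and limma voom 0. The median difference, batch 2 minus batch 1, was -0.75 over the 42. It was -1.29 without shHrs replicate 2 of batch 1, where 5 genes passed (Mcm2, Cdc45, Chaf1b, Brca1 and Brca2) against 2.42% of all genes, and 0.07 without replicate 1. Values were negative in both batches for 32 of the 42, against 26.3% of all genes.

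Over both batches together, edgeR, DESeq2 and limma voom each called 0 of the 42 (edgeR called 0% of all genes), and 4 had an unadjusted p under 0.05, against 13.3% of all genes. The median log2 fold change was -0.61 and 40 of 42 values were negative. For single comparisons, the share of all genes with negative values is given here only for batch 2. Counts of signs in the other comparisons have no such background beside them. Without shHrs replicate 1 of batch 1, edgeR called Chaf1b (-1.73, adjusted p = 0.0238) and Brca1 (-1.40, adjusted p = 0.043) lower, against 0.84% of all genes.

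In tumours, edgeR called 0 of the 42 genes in either direction, where it called 0.545% of all genes (0.235% higher and 0.31% lower). The number at an unadjusted p under 0.05 was 5 (Mcm7, Mcm6, Lig1, Rfc2 and Uhrf1), or 11.9% of the 42, against 14.1% of all genes. The median log2 fold change was -0.10 (all genes 0.01), 33 of 42 values were negative, and they ran from -0.38 to 0.15. The 2 groups overlapped for all 42, where 4.28% of all genes did not overlap (2.28% with shHrs below). Standard errors had a median of 0.10, against 0.455 in batch 2. DESeq2 called Mcm7 lower (-0.33, adjusted p = 0.0319), at a rate of 2.01% of all genes, and limma voom called 0.

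**Figure D3:**
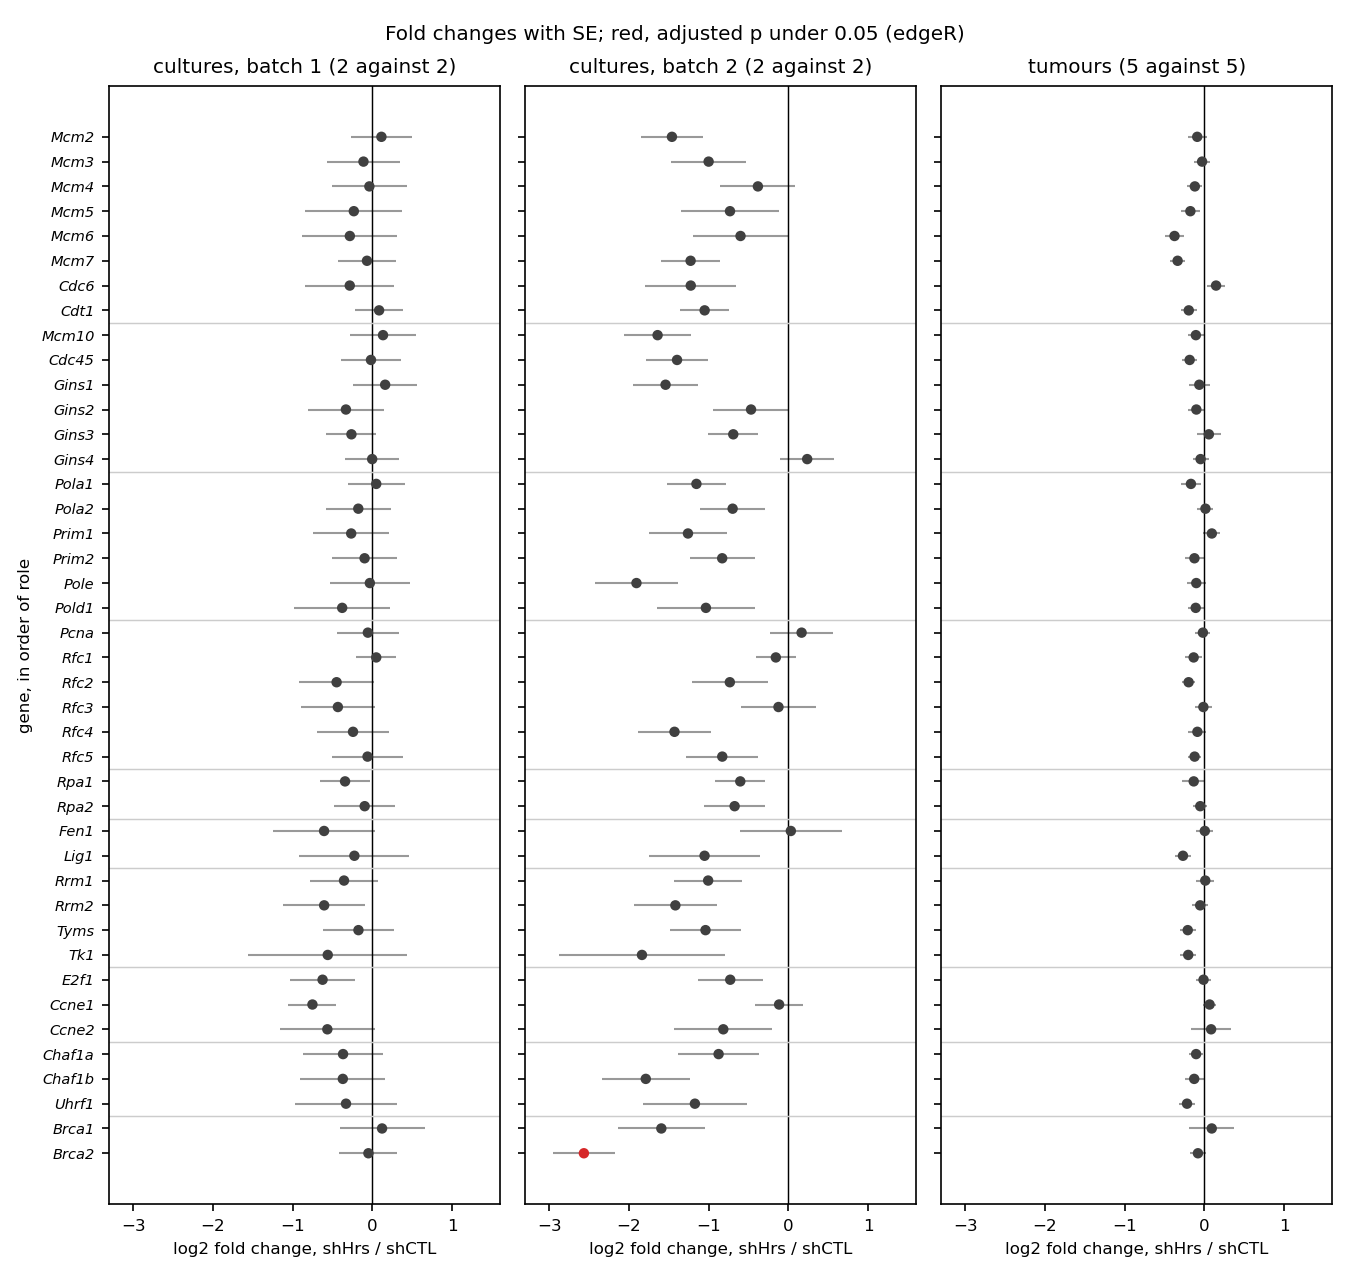
Log2 fold change of shHrs over shCTL (horizontal axis) with its standard error for each of the 42 genes in batch 1, batch 2 and tumours, red where the edgeR adjusted p is under 0.05. Points of batch 2 run from -2.56 to 0.24, those of tumours from -0.38 to 0.15, and Brca2 in batch 2 is the one red point.

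Origin licensing genes were negative in all 8 cases in batch 2 (-1.46 to -0.38) and none passed the test. Mcm2 (chr6:88883474-88898780, minus strand, GRCm38), a subunit of the helicase ring, stood at 553 and 646 CPM in shCTL and 832 and 467 in shHrs cultures of batch 1, and at 652 and 373.5 in shCTL and 222.5 and 163 in shHrs cultures of batch 2. Both shHrs libraries of batch 2 were low, and the log2 fold change was -1.46 (SE 0.39, edgeR adjusted p = 0.0672). Those of batch 1 lay on either side of their controls (0.11, SE 0.38). Mcm2 in tumours was 481, 452, 529, 484 and 358.5 CPM with shCTL and 454, 520.0, 389.8, 356 and 453.5 CPM with shHrs. These 2 groups overlapped (-0.09, SE 0.12).

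Cdc6 (chr11:98907801-98923940, plus strand), the ATPase that loads the ring, had 26.7 and 61.7 CPM in shCTL and 51.9 and 20.7 CPM in shHrs of batch 1, then 33.8 and 17.1 against 12.9 and 9.65 CPM in batch 2. Its log2 fold changes were -0.28 (SE 0.56) and -1.22 (SE 0.57, edgeR adjusted p = 0.202). The groups did not overlap in batch 2 and did in batch 1. Tumour levels were 29.4, 39.8, 34.6, 40.05 and 33.2 CPM with shCTL and 41.1, 39.9, 32.8, 35.5 and 47.1 CPM with shHrs, which overlapped (0.15). Mcm4, Mcm5 and Mcm6 overlapped in batch 2 as well, at -0.38, -0.73 and -0.60, while Mcm3, Mcm7 and Cdt1 had both shHrs libraries below at -1.0, -1.23 and -1.05. In tumours Mcm6 (-0.38, SE 0.12, edgeR adjusted p = 0.184) and Mcm7 (-0.34, SE 0.10, adjusted p = 0.14) had the lowest values of the 42.

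Of the 6 helicase activation genes, 5 were negative in batch 2. Mcm10 (chr2:4989714-5012791, minus strand), which helps the helicase leave the origin, stood at 54.8 and 90.2 CPM in shCTL and 97.8 and 61.7 in shHrs of batch 1, and at 65.7 and 41.7 in shCTL and 22.6 and 12.99 in shHrs of batch 2. The second pair did not overlap (-1.64, SE 0.42, edgeR adjusted p = 0.0654) and the first did (0.13). Mcm10 in tumours read 65.7, 73.3, 78.02, 67.4 and 55.03 CPM for shCTL and 67.4, 70.5, 55.5, 58.9 and 64.03 CPM for shHrs. The tumour groups overlapped (-0.11). Within the GINS complex, whose subunits form one particle, the values in batch 2 were -1.54 for Gins1, -0.47 for Gins2, -0.69 for Gins3 and 0.24 for Gins4, none past the threshold. Gins4 stood at 33.01 and 18.7 CPM in shCTL and 27.9 and 35.2 CPM in shHrs of batch 2, which overlapped. Cdc45 had -1.40 (adjusted p = 0.0735).

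All 6 polymerase and primase genes were negative in batch 2 (-1.91 to -0.70) with groups that did not overlap. Both shHrs libraries lay below both shCTL libraries for 34.7% of all genes. Pole (chr5:110286306-110337474, plus strand), the catalytic subunit of the leading strand polymerase, had 61.97 and 93.8 CPM in shCTL and 98.2 and 54.4 in shHrs of batch 1, and 74.96 and 44.7 in shCTL and 23.7 and 9.27 in shHrs of batch 2. Its log2 fold change in batch 2 was -1.91 (SE 0.52, edgeR adjusted p = 0.0717), and in batch 1, where the libraries overlapped, -0.03. Tumours had 56.5, 47.1, 53.2, 49.1 and 35.1 CPM with shCTL and 46.4, 45.5, 47.3, 37.6 and 48.5 CPM with shHrs, which overlapped too (-0.10). Prim1 (-1.26), Pola1 (-1.15), Pold1 (-1.03), Prim2 (-0.83) and Pola2 (-0.70) followed in batch 2.

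The clamp and its loader ranged from -1.43 to 0.17 in batch 2, with none past the threshold. Pcna (chr2:132249162-132253314, minus strand), the sliding clamp, stood at 243 and 467 CPM in shCTL and 440.2 and 244 in shHrs of batch 1, and at 209 and 160.2 in shCTL and 203 and 226 in shHrs of batch 2. Groups overlapped in both batches, with 0.17 (SE 0.39) in batch 2 where the median of the 42 was -1.003. Its levels in tumours were 305, 296, 318, 331 and 247 CPM for shCTL and 298, 347, 282, 283 and 272 CPM for shHrs, which also overlapped (-0.02). Rfc4 (chr16:23113943-23127737, minus strand), a subunit of the clamp loader, had 37.99 and 43.6 CPM in shCTL and 48.6 and 20.3 in shHrs of batch 1, and 56.95 and 30.8 in shCTL and 14.2 and 19.6 in shHrs of batch 2. The values of batch 2 did not overlap (-1.43, SE 0.46, edgeR adjusted p = 0.0951). In tumours Rfc4 ranged over 47.1, 37.7, 53.2, 48.6 and 34.2 CPM in shCTL and 41.8, 42.1, 40.3, 42.1 and 41.8 CPM in shHrs, with the shHrs libraries inside the range of shCTL (-0.09). The large subunit Rfc1 (-0.16) and Rfc3 (-0.12) overlapped between groups in batch 2, while Rfc2 (-0.73) and Rfc5 (-0.83) did not.

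Single-strand DNA binding was represented by Rpa1 and Rpa2. Rpa2 (chr4:132768332-132778752, plus strand), the middle subunit of replication protein A, stood at 30.4 and 62.3 CPM in shCTL and 49.04 and 38.1 in shHrs of batch 1, and at 37.4 and 25.6 in shCTL and 17.4 and 23.5 in shHrs of batch 2. The groups of batch 2 were apart by a small margin (-0.67, SE 0.38, edgeR adjusted p = 0.284). Tumours had 38.8, 42.3, 48.9, 46.3 and 38.3 CPM with shCTL and 43.96, 44.9, 37.2, 38.6 and 42.9 CPM with shHrs, overlapping (-0.05). Rpa1 had -0.60 in batch 2 and -0.13 in tumours.

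Lagging strand maturation gave unlike values for its 2 genes. Lig1 (chr7:13277283-13311433, plus strand), the ligase that joins Okazaki fragments, had 113 and 184 CPM in shCTL and 213 and 40.4 in shHrs of batch 1, with shHrs replicate 1 the highest and replicate 2 the lowest of the 4. In batch 2 it had 119.5 and 53.6 CPM in shCTL and 44.6 and 42.01 in shHrs, which did not overlap (-1.05, SE 0.70, edgeR adjusted p = 0.353). Tumour levels of Lig1 were 185, 150.1, 184, 159.9 and 132 CPM with shCTL and 139.7, 155.5, 127, 122 and 132 CPM with shHrs, overlapping (-0.27, SE 0.10, adjusted p = 0.259). Fen1, the flap nuclease, overlapped in batch 2 at 0.03, and 78.8% of its exon bases in GENCODE M21 are shared with the antisense gene Gm10143. Gins2 shares 67.3% of its exon bases with Gse1, Chaf1a 52.5% with Ubxn6, Ccne2 17.4% with Ints8, Rfc2 15.1% with Lat2, Rfc4 12.7% with Eif4a2 and Rfc5 10.7% with Wsb2, all on the opposite strand. Whether the counting used strand is not given in the sources used here. Reads of these genes and their partners cannot be told apart without it.

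Deoxynucleotide supply had the lowest median in batch 2 among roles with 3 or more genes (-1.23 over 4 genes, none past the threshold). Tk1 (chr11:117815526-117826092, minus strand), the thymidine kinase of cycling cells, stood at 111 and 189 CPM in shCTL and 191 and 11.3 CPM in shHrs of batch 1. That was the widest gap inside a pair among the 42, 3.86 on the log2 scale. In batch 2 Tk1 had 70.5 and 24.99 CPM in shCTL and 14.3 and 13.4 in shHrs, which did not overlap (-1.84, SE 1.04, edgeR adjusted p = 0.282). Levels of 120.5, 108, 119, 119.6 and 88.98 CPM with shCTL and 97.4, 110.5, 87.5, 99.3 and 90.01 CPM with shHrs in tumours overlapped (-0.20).

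Rrm2 (chr12:24708241-24714146, plus strand), the regulated subunit of ribonucleotide reductase, had 249 and 489.7 CPM in shCTL and 337 and 149.7 in shHrs of batch 1, which overlapped (-0.60, SE 0.52). Batch 2 gave 284 and 131 CPM in shCTL and 87.95 and 72.9 in shHrs, apart from each other (-1.42, SE 0.53, edgeR adjusted p = 0.127). Tumours gave 345, 323, 354, 368 and 279 CPM for shCTL and 312, 349, 303, 277 and 373 CPM for shHrs, overlapping (-0.05). Rrm1, its partner subunit, had -1.01 and Tyms, thymidylate synthase, -1.04 in batch 2.

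The 3 genes of entry into S phase had negative values in both culture batches and a median of 0.07 in tumours, with none past the threshold. E2f1 (chr2:154559407-154569892, minus strand), an activating E2F, stood at 73.4 and 111 CPM in shCTL and 82.3 and 37.2 in shHrs of batch 1 (-0.62, SE 0.41), and at 57.3 and 38.3 in shCTL and 30.5 and 29.2 in shHrs of batch 2 (-0.73, SE 0.41). Neither passed the edgeR test (adjusted p = 0.646 and 0.28), and the groups separated in batch 2. E2f1 in tumours was 58.3, 55.4, 55.5, 52.6 and 54.2 CPM with shCTL and 57.1, 58.04, 47.2, 64.2 and 48.1 CPM with shHrs, overlapping (-0.01).

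Ccne1 (chr7:38097984-38107534, minus strand), which encodes cyclin E1, had 66.2 and 105 CPM in shCTL and 60.6 and 41.7 in shHrs of batch 1, where both shHrs libraries were below (-0.75, SE 0.30, edgeR adjusted p = 0.517). In batch 2 the 44.8 and 38.9 CPM of shCTL and 38.9 and 41.03 CPM of shHrs overlapped (-0.12, SE 0.30). Tumours ranged over 44.8, 46.8, 42.6, 42.2 and 37.2 CPM with shCTL and 44.96, 44.9, 41.02, 45.5 and 47.8 CPM with shHrs (0.07, SE 0.08), which overlapped. Ccne2 (chr4:11191351-11204779, plus strand), its paralogue, was scarcer, at 4.91 and 19.97 CPM in shCTL and 9.74 and 7.15 in shHrs of batch 1, and 6.43 and 4.59 in shCTL and 3.73 and 2.74 in shHrs of batch 2 (-0.82, SE 0.61, adjusted p = 0.413). The libraries of batch 2 did not overlap for Ccne2, and those of batch 1 did. Ccne2 in tumours was 8.74, 8.81, 8.96, 7.94 and 8.19 CPM with shCTL and 10.8, 8.38, 7.53, 4.39 and 14.3 CPM with shHrs, so the shHrs libraries held both the lowest and the highest value.

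Chromatin genes behind the fork had negative values in both batches in all 3 cases, and none passed the test. In batch 1 their mean log2 level was 7.01 and 7.75 in the shCTL libraries. The shHrs libraries of that batch had 7.69 in replicate 1, between the controls, and 6.00 in replicate 2, below both. Chaf1b (chr16:93883901-93906115, plus strand), a subunit of the histone chaperone CAF-1, stood at 50.3 and 76.9 CPM in shCTL and 77.7 and 20.3 in shHrs of batch 1, and at 47.8 and 41.8 in shCTL and 13.5 and 13.4 in shHrs of batch 2. The last pair lay below its controls (-1.79, SE 0.55, edgeR adjusted p = 0.088). Chaf1b in tumours had 87.2, 68.4, 86.3, 84.6 and 59.4 CPM for shCTL and 66.6, 76.6, 74.2, 76.3 and 60.5 CPM for shHrs, overlapping (-0.13). Uhrf1, which brings the maintenance DNA methyltransferase to new DNA, had -1.17 in batch 2 and -0.22 in tumours, and Chaf1a -0.88 and -0.10.

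Fork protection and recombination held the gene that passed the test. Brca2 (chr5:150522630-150570329, plus strand), which acts in recombination and guards stalled forks, had 37.7 and 32.2 CPM in shCTL and 7.22 and 4.99 CPM in shHrs of batch 2. It fell by 2.56 on the log2 scale (SE 0.39, edgeR adjusted p = 0.0229, lower in 2 of 2 libraries), with adjusted p from 1.09e-07 to 0.3 over the alternatives and over 0.05 without any single library of batch 2. Batch 1 had 26.96 and 27.9 CPM in shCTL and 35.3 and 17.7 CPM in shHrs, which overlapped (-0.05, SE 0.36). Tumours had 34.1, 30.9, 34.3, 32.8 and 27.4 CPM with shCTL and 30.6, 33.2, 30.1, 24.6 and 32.95 CPM with shHrs, also overlapping (-0.08, SE 0.10). Brca1, named after its values were seen, had -1.59 in batch 2 (SE 0.55, adjusted p = 0.109) and 0.09 in tumours.

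**Figure D4:**
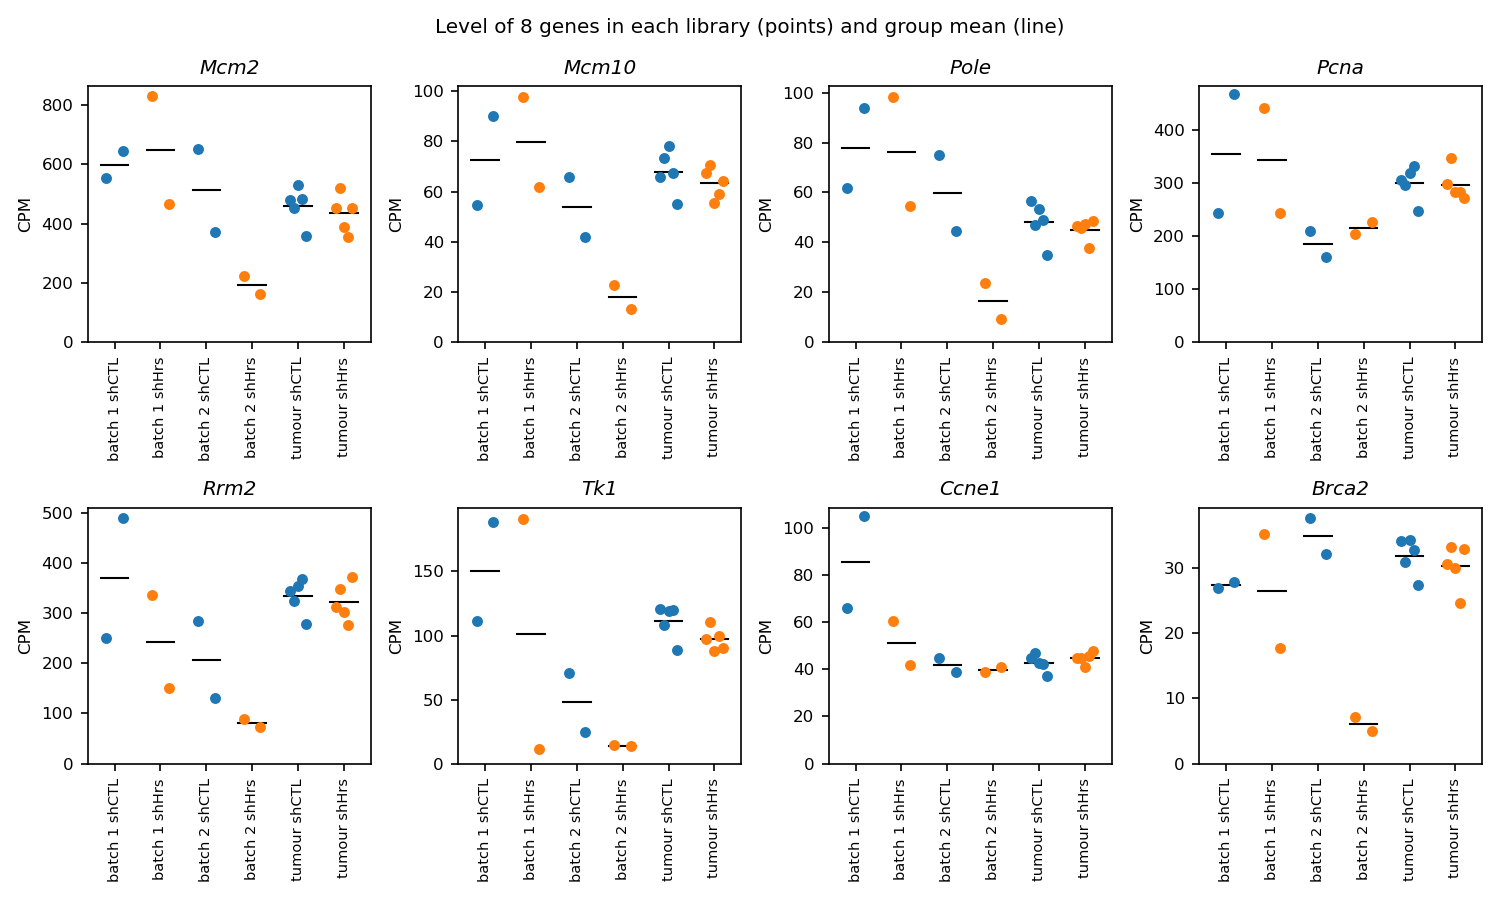
Level of 8 of the genes (vertical axis, CPM, from 0) in each library (points) with the mean of each group (line), for shCTL and shHrs in both culture batches and in tumours. Mcm10, Pole, Tk1 and Brca2 were taken because they had the largest absolute fold change of their role in batch 2. Brca2 lies at 7.22 and 4.99 CPM in the shHrs cultures of batch 2 against 24.6 to 34.3 CPM over all tumours, while Pcna shows no gap between shCTL and shHrs in any setting.

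Whether knockdown acted on these genes to a different extent in tumours than, on average, in the culture batches was tested over all 18 libraries. That fit gives each gene a single spread for tumours and cultures together. The mean level of the 42 genes had a pooled SD of 0.524 within culture groups and 0.125 within tumour groups. Standard errors and p-values of the fit can therefore understate the spread of the cultures. Brca2 passed, with a difference of 1.21 (SE 0.24, edgeR adjusted p = 0.0148), so 1 of 42 genes was called higher, against 2.12% of all genes (3.61% in either direction). Over its alternatives the difference ran from 0.99 to 1.49 and the adjusted p from 2.58e-04 to 0.0649. The median difference of the 42 was 0.49 and 39 of 42 were positive. Counts were 0 without shHrs replicate 2 or shCTL replicate 1 of batch 2, 2 without shHrs replicate 1 of batch 2, and 20 without shHrs replicate 1 of batch 1, against 8.27% of all genes in that last fit.

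Differences were also read by promoter word. The 13 genes with an E2F-type word, Mcm6, Mcm5, Cdc6 and Brca2 among those printed above, had a median of -1.05 in batch 2 and -0.17 in tumours. The 21 genes with a window and no such word, Pcna among them, had -1.01 and -0.09. These medians are given as a description, with no test. The split depends on the RefSeq starts used, and the window of E2f1, among the genes without a word, lies within its GENCODE span.

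To set genes beside each other, levels were divided by kilobases of exon, taken over all GENCODE M21 transcripts of a gene. The annotation used for counting is not given, so the order below holds only for these lengths. In shCTL tumours, Pcna (124.8 ± 13.5 CPM per kb, SD, n = 5) and Rrm2 (120.4 ± 12.5) were the highest and differed by less than their spread. Uhrf1 (75.5 ± 8.12) stood below Rrm2 by more than their spread. Mcm2 (66.3 ± 9.15), Mcm6 (65.0 ± 8.93) and Mcm3 (61.4 ± 8.89) followed and differed from each other by less than their spread. The lowest were Pola2 (5.00 ± 0.503), Gins2 (4.95 ± 0.646), Pole (4.32 ± 0.735), Ccne2 (2.44 ± 0.126) and Brca2 (2.34 ± 0.211), of which neither the first pair nor the last pair differed beyond its spread. Ring subunits that act in equal numbers spanned 33.4 CPM per kb for Mcm4 to 66.3 for Mcm2, and the GINS subunits 4.95 for Gins2 to 36.5 for Gins4. The exon lengths used were 3589 bases for Mcm4, 6956 for Mcm2, 4097 for Gins2 and 1349 for Gins4. Of the Gins2 bases 67.3% are shared with Gse1. The part of these lengths in the differences was not tested.

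The spread between libraries is given as the fold between the highest and the lowest. The highest library exceeded the lowest by a median of 3.84-fold over the 8 cultures, from 1.67-fold for Rfc1 to 16.9-fold for Tk1. Over the 10 tumours it did so by 1.45-fold, from 1.28-fold for Ccne1 to 3.39-fold for Brca1. The lowest tumour was shHrs replicate 4 for 18 genes, shCTL replicate 5 for 11 and shHrs replicate 3 for 9. Fibroblast markers were highest in the first 2 of these tumours, with mean log2 levels of 6.73 in shHrs replicate 4 and 7.08 in shCTL replicate 5, against 3.89 to 6.24 in the other 8. Muscle markers were highest in shHrs replicate 4 (6.81), and shCTL replicate 5 had 4.91 against 1.505 to 5.51 in the other 8. In bulk tumours, fewer cycling cells and less RNA per cell cannot be told apart.

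Host markers varied widely between tumours, and the ranges of the shCTL and shHrs groups overlapped for each list. The summed level of 11 leukocyte markers ran from 25.9 to 276 CPM with shCTL and from 124 to 450.2 CPM with shHrs, and the 9 that were tested all had positive values, with 0 past the threshold. Muscle markers summed to 4.98 to 157 CPM with shCTL and 15.6 to 637 CPM with shHrs, fibroblast markers to 264 to 3083 and 236 to 1772 CPM, endothelial markers to 69.2 to 116 and 74.5 to 123 CPM, and erythroid markers to 3.45 to 94.2 and 1.78 to 8.07 CPM. In cultures, Kdr was at 0 in all 8 libraries and leukocyte markers summed to 3.63 to 35.4 CPM. The part of host cells in the tumour values of the 42 genes was not tested.

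Between shCTL tumours and shCTL cultures, 5 of the 42 genes passed (11.9%), where 50.9% of all genes did (28.3% higher and 22.6% lower). Tyms (0.99, edgeR adjusted p = 0.00136), Gins1 (0.81, adjusted p = 0.00293), Gins4 (0.83, adjusted p = 0.000665) and Brca1 (1.69, adjusted p = 0.0011) were higher in tumours and Ccne1 (-0.49, adjusted p = 0.00687) was lower. These 5 were named after their values were seen. Brca1 stood at 185, 316, 211, 138.5 and 177 CPM in the shCTL tumours, against 64.3 and 77.5 and 67.2 and 47.1 CPM in the shCTL cultures of batch 1 and batch 2, with no overlap. Ccne1 in the same tumours lay below batch 1 and overlapped batch 2. The count of higher genes was 7 without either shHrs library of batch 1 (30.1% of all genes in each fit), whose spread enters the fit. The count of lower genes was 0 without shCTL replicate 2 of batch 1, and 2 without shCTL replicate 1 or either shHrs library of batch 1 or without either shHrs library of batch 2. The labels give the tumours no batch, so kind of sample and any batch cannot be told apart in this comparison. Its p-values also come from the fit with a single spread for tumours and cultures, which can understate the spread of the cultures.

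Other genes of the same pathways were counted in batch 2 in the same fit, where 2.43% of all genes were called lower. Of 15 genes of origin recognition and firing 2 fell, Recql4 (-2.73) and Dbf4 (-1.56), the activator of the kinase that fires origins. Of 19 further fork subunits 2 fell, Top2a (-2.42), the topoisomerase of cycling cells, and Rpa3 (-0.997). E2F, RB and S-phase cyclin genes had 3 of 26 lower, Ccna2 (-2.53, cyclin A2), Rbl1 (-1.89, the RB relative p107) and Tfdp2 (-1.11). Checkpoint and recombination genes had 6 of 17 lower, among them Bard1 (-2.58), Fancd2 (-2.58) and the kinase gene Chek1 (-1.77). Mitosis and spindle genes had 12 of 20 lower, with a median of -2.30, among them Ndc80 (-2.95), Kif11 (-2.89), Tpx2 (-2.37) and Ube2c (-2.30). Of 13 further nucleotide and histone supply genes 0 passed with edgeR or limma voom, 8 had an unadjusted p under 0.05, and DESeq2 called 4 lower and 1 higher. None of these genes was called higher by edgeR. DESeq2 called more genes lower in the other 5 lists too, 6 for origin firing, 5 for fork subunits, 9 for E2F control, 13 for checkpoint and 19 for mitosis. It called 7.91% of all genes lower.

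Ndc80, of the kinetochore, was among the 4 mitosis genes with the smallest p in batch 2, and its -2.95 lay beyond the median of that list. It stood at 69.4 and 57.5 CPM in shCTL and 7.56 and 9.42 CPM in shHrs of batch 2, and at 39.7 and 44.1 and 46.1 and 56.8 CPM in batch 1, where shHrs was above. The mean log2 level of the whole mitosis list in batch 1 was 6.68 and 7.09 in the shCTL libraries. In shHrs it was 6.91 in replicate 1, between the controls, and 5.95 in replicate 2, below both. Of the 20 genes 18 were higher in shHrs replicate 1. Neither shHrs library had the list above both controls, so Ndc80 does not stand for its list there. Tumours had 55.8, 49.7, 63.97, 58.2 and 48.1 CPM with shCTL and 56.5, 62.05, 58.6, 69.00 and 50.7 CPM with shHrs, overlapping. The proliferation marker Mki67 had -3.20 (SE 0.79, adjusted p = 0.0589) in batch 2 and -0.05 in tumours. Cdkn1a, which encodes the kinase inhibitor p21, had 0.83 (SE 0.46) in batch 2 and 0.24 in tumours, and Ccnd1, cyclin D1, 0.64 and 0.14, none past the threshold.

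In batch 1 and in tumours, 0 genes of these 6 lists passed with edgeR, DESeq2 or limma voom. In tumours the genes with an unadjusted edgeR p under 0.05 numbered 1, 2, 2, 2, 0 and 0 for origin firing, fork subunits, nucleotide supply, E2F control, checkpoint and mitosis. The lowest p of each list included Mcmbp (-0.21), Pold2 (-0.26), Cdca7 (-0.30), Tfdp2 (-0.45), Blm (-0.22) and Cdc20 (-0.16). Medians in tumours ran from -0.08 to 0.02, against -0.10 for the 42 genes. For the difference between tumours and cultures, 13 of the 20 mitosis genes were called higher, against 2.12% of all genes. These calls share the limit that the fit can understate the spread of the cultures.

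**Figure D5:**
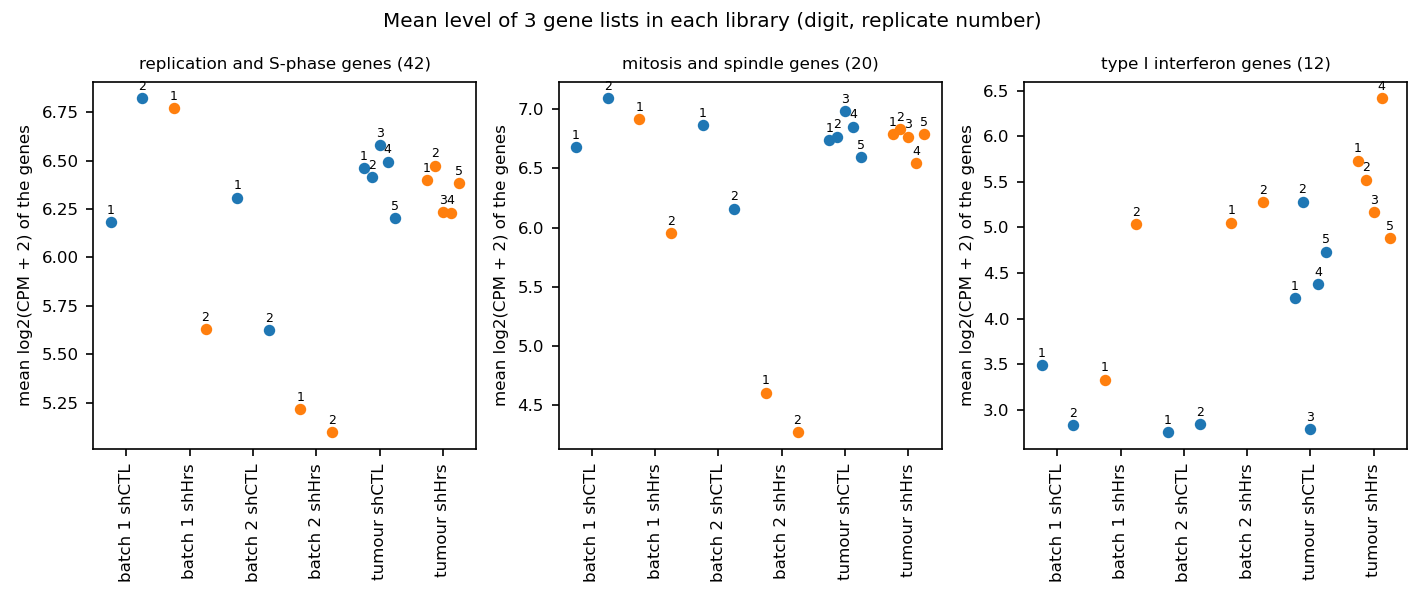
Mean log2(CPM + 2) of the 42 replication and S-phase genes, 20 mitosis genes and 12 type I interferon genes in each library (points, with replicate numbers), by group. In cultures the shHrs libraries of batch 2 and shHrs replicate 2 of batch 1 are below the other shHrs library for the first 2 lists and above it for the third, and the tumours lie between 6.20 and 6.58 for the replication genes.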

How the data were processed

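Per the labels' protocols, total RNA went into NEBNext Ultra libraries that an Illumina HiSeq sequenced from both ends. The tools STAR 2.4.0h2 and DESeq and the build mm10 come from the submitters' processing notes. Which counter, annotation and strand option were used is not given in the sources used here. The values the authors deposited were whole-number read counts for each gene symbol, not normalized. All 18 columns were used. Depth was 17612820 to 27705076 counts per library. No libraries of a group agreed within sampling noise, as repeat deposits of 1 library would (chi-square per degree of freedom 14.5 to 220), which does not show that they came from separate cultures.

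From these counts, R 4.3.3 with edgeR 4.0.16 (filterByExpr, minimum count 10, TMM) gave two-sided quasi-likelihood F tests whose p-values were adjusted by Benjamini-Hochberg over every gene tested. Both culture batches were fitted together with a mean for each batch and treatment, the effect over both batches with batch as a term, the tumours alone, and comparisons of tumours with cultures over all 18 libraries in 6 groups. Standard errors were derived from each fold change and the F statistic of its test. CPM were scaled by TMM over all libraries, and log2 values carry a pseudocount of 2. DESeq2 1.42.0, limma 3.58.1 (voom), other scaling, no filter, each batch alone, a replicate block and leaving out each library were the alternatives.

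The 42 genes and the other lists were chosen with earlier results of these data known. The rule for values in every library took the gene of each role with the largest absolute fold change in batch 2, plus Mcm2, Pcna, Rrm2, Cdc6, E2f1 and Ccne1. Other lists gave up to 4 genes with the smallest p in batch 2 and up to 3 in tumours (some of the latter are not printed), plus Hgs, Cdkn1a, Ccna2, Ccnd1 and Mki67. Adgre1, Hbb-bs and Hbb-bt, 3 of the 217 genes listed, had no row in the table under these symbols. Gene positions and exon lengths are from GENCODE M21 on GRCm38, the assembly of mm10. RefSeq windows were matched by symbol.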

Additional observations from a re-analysis of the deposited data

Results flagged for a closer look

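The 42 genes in the 2 tumour groups give 84 groups of 5 values, and 9 held a library far from the other 4, measured as the gap to the nearest value over the whole range of the group. Chance flags about 1 in 20 groups. Tumour shHrs replicate 4 was the low library for Pola1 (35.8 CPM, others 51.4 to 58.2), Pole (37.6 CPM, others 45.5 to 48.5), Prim2 (41.6 CPM, others 55.5 to 59.8) and Rfc1 (82.4 CPM, others 114 to 127), and it had the highest leukocyte (3.90), and muscle (6.81) marker levels of the 10 tumours as mean log2(CPM + 2). Tumour shHrs replicate 3 was low for Brca1 (93.2 CPM, others 225 to 286) and, by a small margin, for Rfc4 (40.3 CPM, others 41.8 to 42.1). Tumour shHrs replicate 2 was high for Tyms (88.1 CPM, others 71.2 to 75.7) and Gins4 (53.8 CPM, others 45.3 to 47.5). Tumour shCTL replicate 5 was low for Pola1 (47.6 CPM, others 58.4 to 61.5).

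The effect on Brca2 differed between tumours and cultures, by 1.21 on the log2 scale in a test of the difference itself (edgeR adjusted p = 0.0148). It missed the threshold without shHrs replicate 2 (adjusted p = 0.0649) or shCTL replicate 1 (adjusted p = 0.0555) of batch 2. The log2 fold change was -2.56 in batch 2, but -0.05 in batch 1 and -0.08 in tumours, and 1 call among 42 genes is near the 2.12% of all genes called higher. The fit behind the test of the difference shares a spread between tumours and cultures, which can understate the spread of the cultures.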

How the results depend on the processing

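Counts of the 42 genes called lower in batch 2 moved from 1 to 20 without the filter on low counts, 13 with DESeq2 and 27 with the batch alone, and from 0 to 18 with single libraries left out. For the difference between batches, 0 called lower became 5 without the filter and 1 with DESeq2, and 0 to 5 with libraries left out, with a median from -1.291 to 0.067. In tumours 0 became 1 with DESeq2 and stayed at 0 with any library left out. Leaving out libraries gave 0 to 6 called lower in batch 1 (median -0.92 to 0.30), 0 to 2 over both batches, 0 to 20 called higher for tumours against cultures, and 4 to 7 higher and 0 to 2 lower for shCTL tumours against shCTL cultures. The median of batch 1 turned to 0.20 without shCTL replicate 2, and the median of batch 2 stayed between -1.28 and -0.51. The share of all genes called lower moved as well. In batch 2 it went from 2.43% to 7.09% without the filter, 7.91% with DESeq2 and 18% with the batch alone. Between batches it went from 0.0233% to 3.91% without the filter and 3.72% with DESeq2, and in tumours from 0.31% to 2.01% with DESeq2. For most of the largest counts with a library left out, the share of all genes is given above. The cause of these moves was not tested. Where 1 library was left in an arm, it is assumed to vary like the other groups.

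Replicate numbers were not taken to pair the libraries. Deviations of same-numbered libraries correlated at 0.175 in batch 1 and 0.0229 in batch 2, and between -0.588 and 0.462 in tumours, where 1 of 5 numbers correlated best with its own. In cultures each number correlated best with its own, which with 2 numbers follows from the sign of the correlation. With a replicate block the calls among the 42 genes were 1 lower in batch 2, 1 higher for tumours against cultures, and 0 in batch 1, between batches, over both batches and in tumours, with a median of -0.91 in batch 2 and -0.09 in tumours. The block moved the count of all genes called in tumours from 31 higher and 41 lower to 0 and 2. For the other comparisons the share of all genes called with the block is not given here, so those counts have no background beside them. No paired analysis was possible for shCTL tumours against shCTL cultures because the numbers of tumours and cultures do not refer to each other. Size factor scaling and voom changed none of these counts, and of the alternatives run on single genes of the 42, 143 values gained and 7 lost a call while 0 reversed. With 2 libraries in a culture group, the number of libraries limits precision more than depth.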
